A study of Homo sapiens with 10 samples.

Results

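The genes described here are 10 genes whose products the liver secretes into the plasma, in the case of AFP the fetal liver. The 10 are ALB, AFP, TTR, the fibrinogen genes FGA, FGB and FGG, the apolipoprotein genes APOA1, APOA2 and APOB, and SERPINA1. They were chosen by name, from the 20007 protein-coding genes with a canonical transcript, and they were selected with earlier results of these data known, so every value below is a description and none is given with a test. For each gene, the nucleosome positions within 2000 bp of the canonical transcription start site (TSS) and in the gene body were read. RNA was not measured, so whether the genes were silent in these cells was not checked, and they are called liver plasma protein genes.

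The positions came from human induced pluripotent stem cells (hiPSCs) (line PB010.5, with a fluorescent reporter of the cell cycle) that were digested with micrococcal nuclease (MNase). For the enzyme titration in hiPSCs the methods of the study give 5 min and its results give 10 min. The amount of enzyme was 0.5 U or 1 U in the mildest digestions, 3 U in the middle and 6 U or 10 U in the strongest. Each of the 5 digestions was sequenced with 150-bp and with 50-bp reads, which gives 10 samples with 1 replicate each, and yeast nucleosomal DNA was added to all of them before library preparation. The authors deposited 1 pooled list, and the runs that were pooled are not named in the sources used here. There was no control tissue, no liver cell and no replicate of the list, so no error between replicates can be given. The list held 12921589 positions of 140 bp, each with 1 score, the authors' signal for that position. The median score was 14.8. Scores moved in equal steps, of which the median holds 12, midpoints lay on a 10-bp grid in 94.4% of cases, and neighbouring midpoints were at least 100 bp apart, so a distance is known to about 10 bp and a score to no better than 1 step.

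A nucleosome is DNA wrapped around a core of histones, and MNase cuts the linker DNA between nucleosomes first. At transcribed genes the DNA just upstream of the TSS is commonly free of nucleosomes, with one well-placed nucleosome, called +1, shortly downstream. The plasma protein genes are classical liver genes: their promoters are bound in hepatocytes by factors such as HNF1, HNF4, FOXA and C/EBP proteins. Several have a TATA box shortly upstream of the TSS.

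The 7 stretches of upstream sequence that follow are shown because they hold the TATA, HNF1 or FOXA letters that the positions are set against below. They were read from the GRCh38 reference on the strand of the gene, 5′ to 3′, and end at the base before the TSS unless an annotated exon of any transcript came first. Capitals mark exact matches on either strand. These are TATAAA, the TATA box bound by the general transcription machinery, and GTTAAT, a part of the site of the liver factor HNF1. They are also TGTTTAC, the core of the site of the FOXA factors. The fourth is CCAAT, the CCAAT box of many promoters. Stretches of FGG and SERPINA1 are not shown, since exons of other transcripts overlap them.
ALB (plus strand, chr4:73404187-73404254): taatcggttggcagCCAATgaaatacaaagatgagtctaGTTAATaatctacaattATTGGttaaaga
AFP (plus strand, chr4:73436021-73436220): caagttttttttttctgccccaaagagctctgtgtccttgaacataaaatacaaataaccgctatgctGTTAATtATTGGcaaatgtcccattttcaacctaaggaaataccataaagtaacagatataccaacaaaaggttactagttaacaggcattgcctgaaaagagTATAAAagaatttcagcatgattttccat
TTR (plus strand, chr18:31591777-31591876): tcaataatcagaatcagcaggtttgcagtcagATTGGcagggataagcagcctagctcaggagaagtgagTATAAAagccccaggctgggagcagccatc
FGA (minus strand, chr4:154590743-154590842): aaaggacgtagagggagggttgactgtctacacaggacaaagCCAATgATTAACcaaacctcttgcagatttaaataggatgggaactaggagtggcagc
FGB (plus strand, chr4:154562911-154563010): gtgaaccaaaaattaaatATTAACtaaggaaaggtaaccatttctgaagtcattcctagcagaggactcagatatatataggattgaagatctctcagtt
APOA2 (minus strand, chr1:161223632-161223728): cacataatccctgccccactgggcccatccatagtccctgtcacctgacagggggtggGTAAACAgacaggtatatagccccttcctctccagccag
APOB (minus strand, chr2:21044074-21044173): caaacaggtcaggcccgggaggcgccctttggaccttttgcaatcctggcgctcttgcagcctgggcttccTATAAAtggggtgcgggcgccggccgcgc

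At 8 of the 10 genes a 140-bp position lay across the TSS itself, against 50.7% of the 19093 other autosomal protein-coding genes. The exceptions were APOB and SERPINA1. The calls at APOB and APOA2 turn on less than the 10 bp or so to which a distance is known. At 6 genes, ALB, AFP, TTR, FGA, FGG and APOA1, the midpoint lay within 20 bp of the TSS, against 15.0% of the other genes. The limit of 20 bp was set after the values were seen. To compare genes of like base composition, each gene was also set against the autosomal protein-coding genes whose GC content in the 1000 bp centred on the TSS was within 2 percentage points of its own. Among these genes of like promoter GC, 48.3% to 75.3% had a position over the TSS, depending on the gene matched, and 13.6% to 23.4% had a midpoint within 20 bp of it. The means of these shares over the 10 genes matched were 60.7% and 17.4%.

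**Figure D1:**
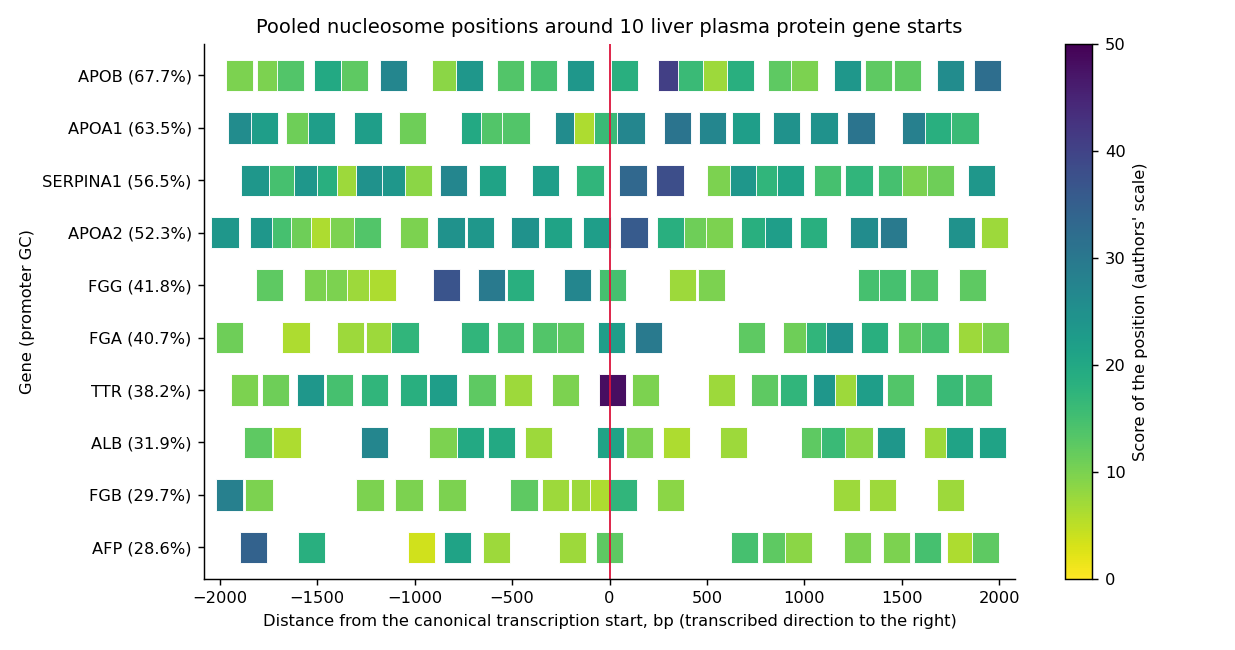
Every pooled position within 2000 bp of the canonical TSS (red line, distance in bp on the horizontal axis) of the 10 genes, drawn as boxes of 140 bp and coloured by score, with genes ordered by promoter GC. A position lies across the TSS at 8 genes, and the darkest box, with a score of 48.1, is the one over the TSS of TTR.

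The 200 bp upstream of the TSS held at least 1 midpoint at 8 of the 10 genes, against 74.2% of the other genes, a share near that background. ALB and TTR held none, APOA1 and FGB held 2, and the other 6 genes held 1 each. The edge of this window decided some of these counts: the midpoint at FGA lay at -200 bp and that at AFP at -189 bp, just inside, while that at TTR lay at -225 bp, just outside. The gap across the TSS, from the nearest upstream to the nearest downstream midpoint, ranged from 100 bp at FGB to 370 bp at ALB, with a median of 200 bp, and had a median of 225 bp over the other genes. Only FGB and APOA1, at 100 and 120 bp, were below the 10th percentile of their genes of like promoter GC, and no gene was above the 90th.

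ALB encodes albumin, the main carrier protein of plasma (ENSG00000163631.18, plus strand, chromosome 4 from 73397114 to 73421482, canonical TSS at 73404287). Its promoter GC was 31.9%, with 220 genes of like GC. The nearest downstream position, from 73404222 to 73404361, was centred 5 bp past the TSS, so that 65 bp of it lay before the canonical TSS, 41 bp in the 5′UTR and 34 bp in coding sequence. Its score of 21.0 was at percentile 89.4 of the genes of like GC. The next midpoint upstream lay at -365 bp with a score of 7.40, which left ALB the widest distance across the TSS of the 10 genes, at percentile 72.7 of its like genes.

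AFP encodes alpha-fetoprotein, the carrier protein of fetal plasma, and lies next to ALB (ENSG00000081051.8, plus strand, chromosome 4 from 73431138 to 73456174, canonical TSS at 73436221). It had the lowest promoter GC of the 10 genes, 28.6%, and only 44 genes of like GC. The position from 73436152 to 73436291 was centred 1 bp past the TSS, the closest of all, and its score was 12.3, the lowest downstream score of the 10 genes and the one below the median of the list. No other midpoint followed for 690 bp, and the upstream neighbour at -189 bp had a score of 7.40.

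TTR encodes transthyretin, the carrier of thyroxine and of retinol-binding protein (ENSG00000118271.12, plus strand, chromosome 18 from 31557009 to 31598833, canonical TSS at 31591877, promoter GC 38.2%). The position from 31591822 to 31591961 was centred 15 bp past the TSS and had 55 bp before the canonical TSS, 26 bp in the 5′UTR and 59 bp in coding sequence. Its score was 48.1, or 39 steps, which was above 99.9% of all autosomal positions. Of the 620 genes of like promoter GC, 0 had a nearest downstream score as high. The positions on either side, at -225 and 185 bp, both had a score of 9.87, so the high score stood between a pair of low ones.

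FGA, FGB and FGG encode the alpha, beta and gamma chains of fibrinogen, the precursor of fibrin in blood clots, and lie together on chromosome 4. At FGA (ENSG00000171560.18, minus strand, from 154583126 to 154590742, canonical TSS at 154590742, promoter GC 40.7%), the position from 154590662 to 154590801 was centred 10 bp past the TSS with a score of 22.2, and the next, at 200 bp, had a score of 29.6. At FGG (ENSG00000171557.17, minus strand, from 154604134 to 154612967, canonical TSS at 154612656, promoter GC 41.8%), the position from 154612572 to 154612711 was centred at 14 bp with a score of 14.8. Here the upstream position was the higher one: that at -166 bp had a score of 27.1, at percentile 90.4 of the genes of like GC. FGB (ENSG00000171564.12, plus strand, from 154563011 to 154572807, canonical TSS at 154563011, promoter GC 29.7%) differed from both. Its TSS lay inside a position centred at -29 bp, and the next midpoint, at 71 bp, followed after 100 bp, the shortest distance in the list, so that the pair overlapped. The first had a score of 6.17, at percentile 3.25 of the genes of like GC, and the second 17.3, at percentile 84.4.

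APOA1, APOA2 and APOB encode apolipoproteins, the first 2 of high-density and the last of low-density and very-low-density lipoproteins. Their promoter GC was 63.5%, 52.3% and 67.7%, against a median of 61.5% over the other genes, so only that of APOA2 was below the median. At APOA1 (ENSG00000118137.10, minus strand, chromosome 11 from 116835751 to 116837622, canonical TSS at 116837622), 3 midpoints at -210, -110 and -10 bp stood 100 bp apart, with scores of 25.9, 6.17 and 16.0. The last of them, from 116837562 to 116837701, lay over the TSS, and its score was above 20.4% of the autosomal positions of equal GC, so the TSS was covered by a position of low score for its bases. At APOA2 (ENSG00000158874.11, minus strand, chromosome 1 from 161222292 to 161223631, canonical TSS at 161223628), the position at -64 bp reached 7 bp into the 5′UTR with a score of 22.2, and the downstream position at 126 bp had a score of 35.8, at percentile 79.6. At APOB (ENSG00000084674.15, minus strand, chromosome 2 from 21001429 to 21044073, canonical TSS at 21044073) the TSS lay free between midpoints at -149 and 76 bp, with scores of 23.4 and 18.5. The position after these, at 321 bp, had the highest score around APOB, 40.7.

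SERPINA1 encodes alpha-1-antitrypsin, the inhibitor of neutrophil elastase (ENSG00000197249.14, minus strand, chromosome 14 from 94376747 to 94390693, canonical TSS at 94388602, promoter GC 56.5%). Its TSS was also free, between midpoints at -100 and 120 bp, 220 bp apart, against a median of 230 bp over 2487 genes of like GC. The downstream scores were 33.3 at 120 bp and 38.2 at 310 bp, and the upstream score was 17.3. APOB and SERPINA1 were thus the 2 genes with the TSS between positions. APOB was a close case, since its downstream position ended at 21044066 and its TSS lay at 21044073. APOA2 counted as covered by only 7 bp.

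**Figure D2:**
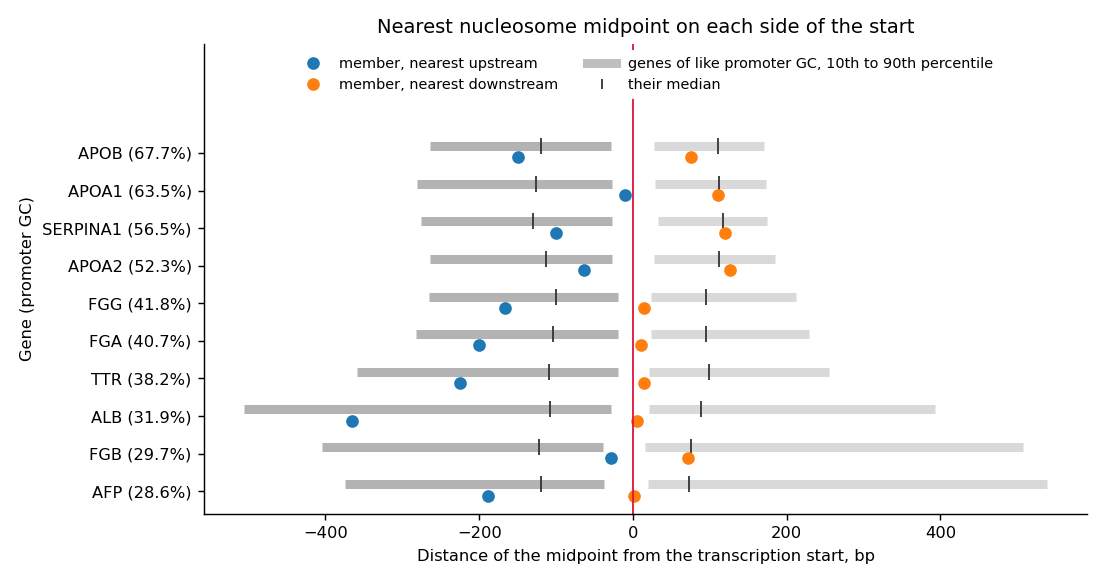
Distance in bp of the nearest midpoint upstream (blue) and downstream (orange) of the TSS at each gene, with the 10th to 90th percentile (grey bars) and median (ticks) of its genes of like promoter GC. The downstream midpoints of ALB, AFP, TTR, FGA and FGG lie between 1 and 15 bp, left of their grey bars, and those of the other 5 genes lie inside theirs.

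The genes fell into 2 kinds by promoter GC, with a limit of 45% that was also set after the values were seen. At the 6 genes below it, ALB, AFP, TTR and the fibrinogen genes, the nearest downstream midpoint lay 1 to 71 bp from the TSS with a median of 12 bp, against a median of 97 bp over 1962 other genes below the limit. A position lay over the TSS at 6 of these 6 genes, against 64.5% of the 1962, and a midpoint within 20 bp at 5 of 6, against 20.2%. At the 4 genes above the limit, APOA1, APOA2, APOB and SERPINA1, the nearest downstream midpoint lay 76 to 126 bp from the TSS with a median of 115 bp, close to the 112 bp of 17131 other genes. A position lay over the TSS at 2 of these 4, against 49.1%, and a midpoint within 20 bp at 1 of 4, APOA1, against 14.4%. The midpoint of APOA1 at -10 bp counted as upstream, so its downstream distance is that of the next position, at 110 bp. By its nearest midpoint APOA1 resembled 5 of the 6 genes below the limit. The nearest midpoint of the 1962 other genes below it lay at a median distance of 49 bp. The downstream distance of 5 genes was below the 10th percentile of genes of like GC: 5 bp against 20.7 bp at ALB, 1 against 19.5 at AFP, 15 against 21.0 at TTR, 10 against 24.0 at FGA and 14 against 23.0 at FGG. Several of these genes are neighbours and share their stretch of chromosome, so they are not independent examples.

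Lists of other genes were read in the same way. Of 48 other autosomal genes of liver plasma proteins, such as clotting factors, complement proteins and further apolipoproteins, 27 had a position over the TSS and 8 had a midpoint within 20 bp. Among 12 genes of liver transcription factors the counts were 8 and 2. Among 10 pluripotency genes, a class known to be transcribed in such cells, they were 3 and 1. The other liver plasma protein genes therefore had a midpoint near the TSS about as often as all genes, at 16.7%, while the 10 genes had 60% and were chosen with these data known. Differences between the lists were not tested, and the lists differ in promoter GC. Its median was 58.7% at the pluripotency genes, 64.6% at the liver transcription factor genes, 51.6% at the other liver plasma protein genes and 41.25% at the 10 genes. Other genes of 45% promoter GC or more had a position over the TSS less often, at 49.1%, than those below, at 64.5%. The liver transcription factor genes, with the highest of these medians, had one at 66.7%. A part of promoter GC in the differences between the lists was not tested. Of the apolipoprotein genes beside APOA1, APOC3 had a midpoint 15 bp past its TSS with a score of 23.4, APOA4 had one at 32 bp with 17.3, and APOA5 had its TSS free, with the next midpoint at 77 bp and a score of 46.9.

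**Figure D3:**
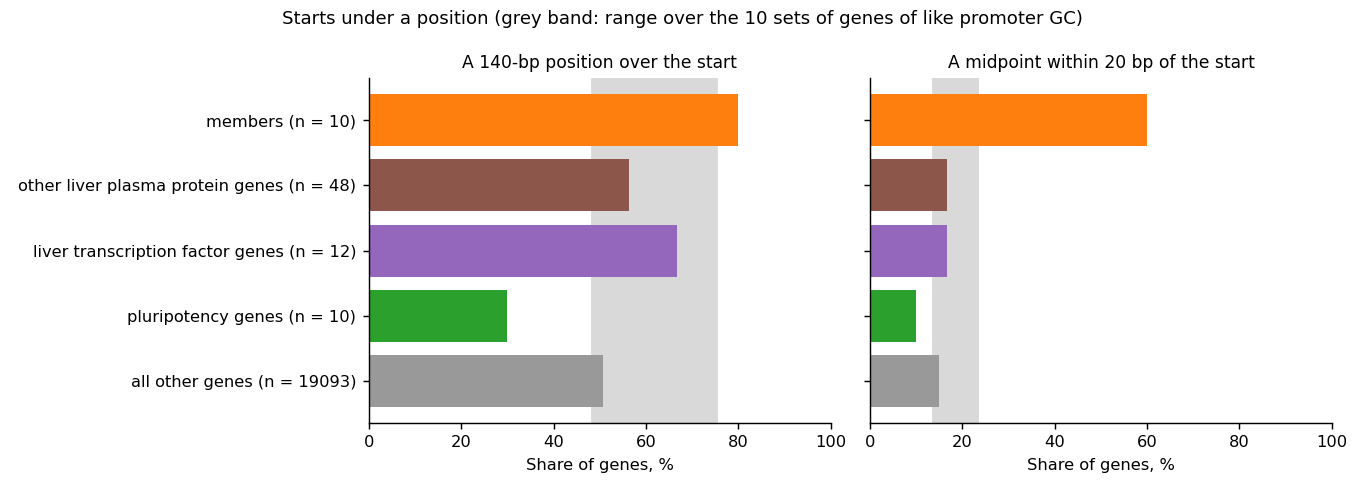
Share of genes in percent with a 140-bp position over the TSS (left) and with a midpoint within 20 bp of it (right), for the 10 genes, 3 other lists and the 19093 other autosomal genes. The grey band gives the range over the 10 sets of genes of like promoter GC. The 10 genes are at 80% and 60%, right of both bands, and 10 genes is a small number. The mean shares over these 10 sets are 60.7% and 17.4%.

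The score of the nearest downstream position was at or above the median of the whole list at 9 of the 10 genes, all but AFP, against 78.0% of the other genes. It ranged from 12.3 at AFP to 48.1 at TTR with a median of 21.6, against 22.2 over all other genes. Compared with genes of like promoter GC, it was above their median at 8 genes and below it at APOB and FGG, at percentiles 32.0 and 35.8. The gene at the top was TTR, followed by ALB at percentile 89.4, FGB at 84.4, APOA2 at 79.6, FGA at 75.1, SERPINA1 at 70.1, AFP at 63.6 and APOA1 at 54.3. Against single autosomal positions of equal GC around the midpoint, in bins of 1 percentage point, the downstream score was above 99.8% of them at TTR, 92.8% at APOA2 and 92.0% at ALB, and above only 29.0% at FGG. The score of the nearest upstream position was below the median of genes of like GC at 7 genes and above it at APOA2, APOB and FGG.

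**Figure D4:**
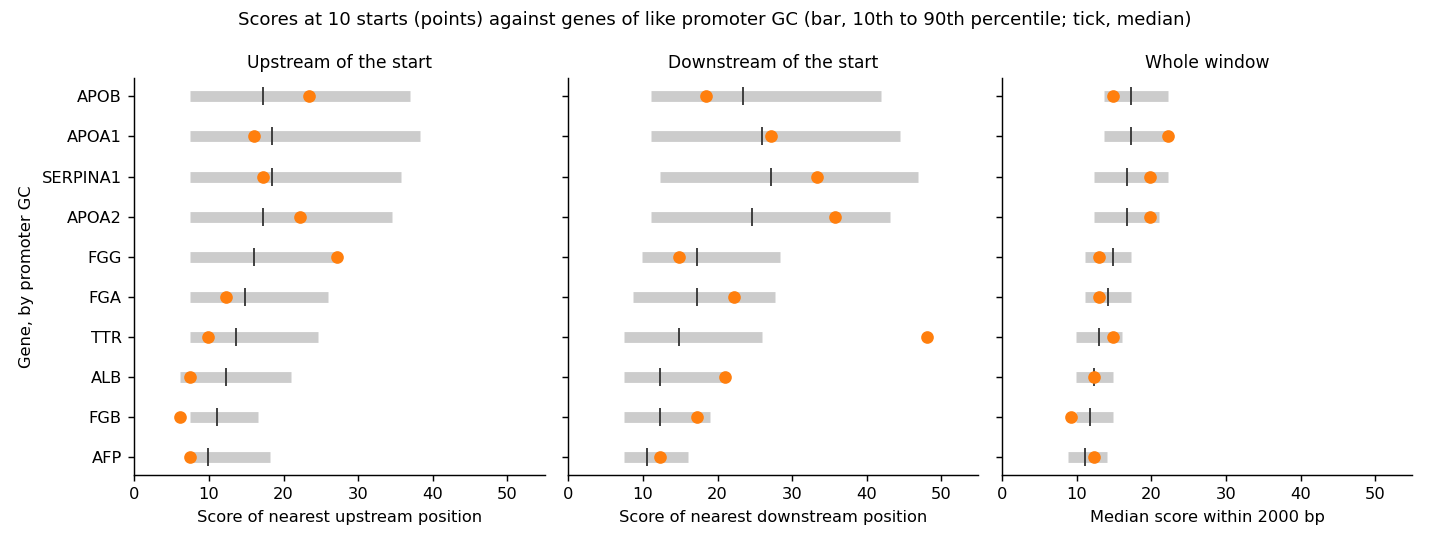
Score, on the authors' scale, of the nearest upstream position, the nearest downstream position and the median of all positions within 2000 bp (points) at each gene, with the 10th to 90th percentile (bars) and median (ticks) of its genes of like promoter GC. Of the 10 downstream scores, that of TTR at 48.1 lies beyond its bar, which ends at 25.9.

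Over the whole 2000 bp on each side, the genes held 14 positions at FGB to 24 at APOA2 and SERPINA1, with a median of 20.5 against 21 over all other genes. The median score ranged from 9.25 at FGB to 22.2 at APOA1. FGB was at percentile 5.84 of its genes of like GC and APOA1 at 88.7, and the rest lay between. Against positions of equal GC, the median percentile of a gene's positions ran from 40.0 at APOB to 61.8 at AFP, around a median of 52.0 over the 10 genes. The highest score of the window lay downstream of the TSS at TTR, APOA2, FGA, SERPINA1 and APOB, at 15, 126, 200, 310 and 321 bp. It was also downstream at APOA1, where 2 positions, at 350 and 1290 bp, shared the highest score of 30.8. It lay upstream at ALB, FGB, AFP and FGG, with 27.1 at -1205 bp, 28.4 at -1949 bp, 34.5 at -1829 bp and 37.0 at -836 bp.

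The spacing differed from gene to gene. Downstream of APOA1, midpoints followed at 110, 350, 530, 700, 910, 1100 and 1290 bp with scores of 22.2 to 30.8, which is a run of distances from 170 to 240 bp through most of the gene. The autosomal median was 180 bp, with quartiles of 130 and 240 bp. At the fibrinogen genes, by contrast, long stretches past the TSS held no midpoint. These ran between the midpoints at 311 and 1216 bp at FGB, 524 and 1344 bp at FGG and 200 and 730 bp at FGA. The longest distance between neighbours within 2000 bp of the TSS was thus 905, 820 and 530 bp, at percentiles 88.3, 96.0 and 74.0 of the genes of like promoter GC. At AFP it was 690 bp, which was near the median of 665 bp of its genes of like GC, and it was 270 bp at both APOB and SERPINA1, at percentiles 9.02 and 7.43.

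In the gene bodies, between the annotated ends of each gene, the density of positions ranged from 4.18 per kb at FGB to 5.97 per kb at APOA2. APOA2, TTR and SERPINA1, at 5.97, 5.43 and 5.95 per kb, were above the 90th percentile of the autosomal genes whose gene-body GC was within 1 percentage point. FGB, FGG and APOA1 were below the median of such genes, at percentiles 21.1, 29.4 and 33.4. Gene bodies of APOA1 and APOA2 span only 1872 and 1340 bp and held 10 and 8 positions, so their densities rest on few positions, whereas APOB, which spans 42645 bp, held 228. The median score in the body was highest at APOA1, 25.9, against 21.0 over genes of like gene-body GC, and lowest at AFP, 11.1, against 12.3. At equal GC of single positions, the body of FGG stood lowest, with a median percentile of 37.8 that was itself at percentile 4.35 of its like genes, and that of APOA1 stood highest, at 65.9 and percentile 92.3.

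**Figure D5:**
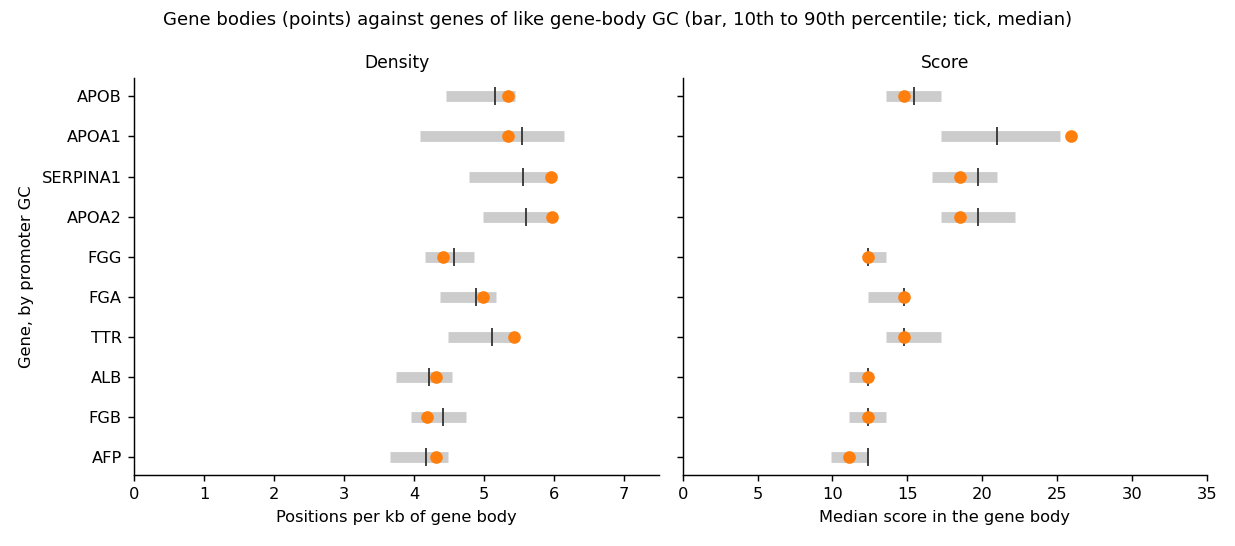
Positions per kb (left) and median score (right) in the gene bodies of the 10 genes (points), with the 10th to 90th percentile (bars) and median (ticks) of genes of like gene-body GC. APOA1 is the gene with a score beyond its bar, at 25.9, and APOA2, TTR and SERPINA1 lie just beyond the upper end of theirs in density.

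The bodies were also set against the 50 kb on either side. At APOB the body held 5.35 positions per kb with a median score of 14.8, against 5.40 and 4.60 per kb and scores of 16.0 and 13.6 in the flanks. At SERPINA1 the body was denser, 5.95 per kb against 4.92 and 5.10, and higher in score, 18.5 against 16.7 and 14.8, and it was also richer in GC, 51.8% against 45.5% and 42.2%. The body of APOA1, with 62.6% GC, had a score of 25.9 against 19.7 and 17.3 in flanks of 49.3% and 45.1% GC. Against single positions of equal GC, the body of SERPINA1 had a median percentile of 45.6 and its flanks 53.9 and 47.2, so its score was no longer the higher one. The body of APOA1, at 65.9, was still above its flanks, at 57.8 and 60.7. By this measure the body was above both flanks at 6 genes, ALB, APOA1, APOB, TTR, FGA and FGB, below both at APOA2, FGG and SERPINA1, and between them at AFP. Over the canonical transcript alone, ALB was at 48.0, between its flanks at 47.2 and 50.5. TTR was then at 45.1, below both of its flanks at 46.1 and 50.4, and the other genes kept their class.

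The fibrinogen cluster, from the start of FGB to the 5′-most start of FGG on the opposite strand, spans 49957 bp and held 221 positions, 4.42 per kb, with a median score of 13.6. The 10318 bp between FGB and FGA held 44 positions and the 13391 bp between FGA and FGG held 59, at 4.26 and 4.41 per kb, while the genes FGB, FGA and FGG themselves had 4.18, 4.99 and 4.41 per kb. The 9655 bp between ALB and AFP held 46 positions, 4.76 per kb, against 4.31 per kb in each of the 2 genes.

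Exonic positions were those with at least 0.4 of their length in an exon of the canonical transcript. Their median score was higher than that of the other positions of the transcript at 7 genes, equal at APOB and FGG and lower at APOA2. At FGA, 14 exonic positions had a median score of 17.3 and 15 others 12.3, and at AFP, 14 exonic positions had 13.6 and 75 others 11.1. In both genes the exonic positions were also richer in GC, at 45.9% against 38.8% in FGA and 38.4% against 34.0% in AFP. Against positions of equal GC, the exonic positions were higher at only 3 genes, ALB, AFP and APOA1, and lower at 7. At APOB the order rests on 47.16 against 47.22, which is close to equal. APOA2, TTR and APOA1 had only 2, 5 and 5 exonic positions. At AFP the median percentiles were 57.2 and 50.3, while at FGA the order turned, with 49.3 for exonic and 53.2 for other positions, and at FGG they were 29.0 and 40.0. APOB has an unusually long exon, exon 26 of 29, which spans 7572 bp on chromosome 2 from 21005080 to 21012651 and encodes much of the protein. It held 36 positions, or 4.75 per kb, with a median score of 15.4. Over all of APOB, 75 exonic and 153 other positions had the same median score of 14.8 and the same median GC of 43.5%.

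Upstream motifs were set against the positions. Within the 200 bp before the TSS, 15 matches were found in 9 of the 10 genes, and 12 of them lay wholly inside a position. Of 10982 matches of the same motifs at the other promoters 48.5% did so, and 54.9% of the 1872 at promoters below 45% GC. Of all bases in this window, 70.3% lay inside a position at the 10 genes and 58.3% at the other promoters. At the other promoters below 45% GC the share was 61.6%, so a match inside a position is common. The difference was not tested. GTTAAT, which is only a part of the HNF1 site, was present at ALB, AFP, FGA, FGB and SERPINA1, against 3.28% of the other promoters and 12.7% of those below 45% GC. TATAAA was present at AFP, TTR and APOB, against 7.86% and 27.8%. The TATA letters of TTR, from -30 to -25 bp, lay inside its position with the score of 48.1, and those of AFP, from -29 to -24 bp, inside the position centred on its TSS, while those of APOB, at -29 bp, lay in no position. The HNF1 letters of ALB, from -61 to -56 bp, lay 63.5 bp from the midpoint of the position over the TSS, near its edge, and those of FGA lay 59.5 bp from the midpoint of its own. Those of AFP, FGB and SERPINA1 also lay inside a position, at 59.5, 49.5 and 26.5 bp from the nearest midpoint. CCAAT was present at ALB, AFP, TTR, FGA and FGG, against 30.1% of the other promoters. TGTTTAC was present at APOA2, against 1.60%, and CAAAGTCCA, an HNF4 site, at 0 of the 10, against 0.246%. A match is only a run of letters, and binding of these factors was not measured.

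The canonical TSS is one of several annotated starts. The 5′-most start lay 7173 bp upstream at ALB, 5083 bp at AFP, 34868 bp at TTR, 311 bp at FGG, 2091 bp at SERPINA1 and 3 bp at APOA2, and was the canonical one at the other 4 genes. At these 5′-most starts a position lay over the start at ALB, AFP, TTR and APOA2, as at their canonical TSS. SERPINA1 had a position over its 5′-most start and none over the canonical TSS, and FGG had the opposite, so the count of 8 genes was the same with one gene exchanged. At ALB it was centred at -2 bp with a score of 29.6, at AFP at -26 bp with 27.1, and at TTR at -57 bp with 12.3. The score of 48.1 at TTR belonged to the position over its canonical TSS. Within 2000 bp of its 5′-most start the highest score was 51.8, at a position elsewhere in that window.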

How the data were processed

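The authors trimmed the reads with Trimmomatic 0.40, per the submitters' processing notes, aligned them to GRCh38 and called positions in the nucMACC workflow, with blacklisted regions taken out. The deposited list gives each position a score, a signal that is never negative, and neither its scaling nor the program that called the positions is given in the sources used here. The list gives no read totals, so the depth behind a score is unknown and no interval is given for it. No position was filtered out, and the sex chromosomes entered only one alternative.

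The members and lists were chosen with earlier results of these data known. Canonical starts, exons and gene ends came from GENCODE release 44, while the study names another release. The midpoint of a position was its start plus 70 bp, distances were taken along the strand of the gene, and a midpoint on the TSS counted as downstream. The percentile of a gene is the share of its genes of like GC with a lower value, with ties shared evenly. Motifs were exact matches on both strands. Besides those of FGG and SERPINA1, one upstream sequence is not reported here. The 10 genes were all named, and of the other lists only the genes beside APOA1. With 1 pooled list, no test was made. Calculations used Python 3.11.15, NumPy 2.4.6, pandas 2.3.3 and matplotlib 3.10.9 and were first checked on simulated positions.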

Additional observations from a re-analysis of the deposited data

How the results depend on the processing

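The values compared here are medians over the 10 genes of their percentile among genes of like GC, or counts of genes. Under 46 alternatives to 9 results, 25 values stayed within the 95% Wilson interval of the reported percentile, within 1.5 times the reported count or within 10 bp of the reported distance, and 21 moved. The Wilson interval was taken from the number of comparison genes, or of positions for the percentile at equal GC. It does not measure the spread over the 10 genes, so this split only sorts smaller changes from larger ones. With no test there was no called direction to reverse, but 6 of the moves, 3 for the upstream midpoints and 3 for the median score within 2000 bp, took the median percentile from above 50 to below it. The cause of a move was not tested. For midpoints in the 200 bp upstream, the median percentile of 56.0 became 45.3 with the top 10% of positions by score, 73.6 with the 5′-most start, 43.3 over 150 bp, 34.9 over 300 bp and 62.9 with midpoints weighted by score. For the distance across the TSS, 41.7 became 20.5 with the better-scored positions, those that reached the median score of the list. For the downstream score, 72.6 became 57.8 with the better-scored positions, 64.1 with the top 10%, 64.2 with the 5′-most start and 63.3 with GC matched over the 200 bp upstream. For the median score within 2000 bp, 61.6 became 68.2, 56.4, 32.3 and 44.4 under the same 4 changes, 56.3 with GC within 4 points and 47.1 over 1000 bp, so whether it was above or below that of like genes depends on the choice. For positions per kb of gene body, 69.7 became 65.3 with the better-scored positions, 61.2 with gene-body GC within 2 points, 75.3 without the first 2000 bp, where APOA1 and APOA2 had no value, and 88.5 over the canonical transcript. The median spacing in gene bodies, 180 bp, became 249 bp with the better-scored positions, where the autosomal median became 250 bp. The percentile among positions of equal GC moved under neither alternative.

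The count of genes with a position over the TSS, 8, became 6 with the better-scored positions, against 28.9% of the other genes, and was 8 with the 5′-most start, against 54.9%, where SERPINA1 took the place of FGG. The 6 genes with a midpoint within 20 bp became 4 within 10 bp, against 7.49% of the other genes, 7 within 30 and 50 bp, against 22.1% and 37.2%, 5 with the better-scored positions, against 7.86%, and 4 with the 5′-most start, against 16.6%. The 9 alternatives for these counts, the canonical transcript and the spacing were added after the data were seen. No paired analysis was possible because the 1 pooled list holds no value for a single sample, and for the same reason no replicate could be left out. The list has 1 score per position and no depth, so no error of a single distance or score can be given.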
